A study of Mus musculus with 4 samples.

Results

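The nuclei described here are alveolar type 2 (AT2) nuclei in which RNA of the surfactant system was abundant. Members were chosen by their measured RNA. A nucleus was a member if it had 1000 to 25000 unique molecular identifiers (UMIs, counts of distinct RNA molecules), at least 300 genes and under 20% mitochondrial UMIs. In addition, Sftpb, Sftpa1, Sftpd, Slc34a2, Lamp3, Abca3, Cxcl15 and Lpcat1 had to make up at least 1% of its nuclear-encoded UMIs. The 6 genes Abcb1b, Atg9b, Dscaml1, Anks1b, Tshr and Eda2r, used here as marks of the transitional state of injured AT2 cells, had to sum to under 3 UMIs, and Cxcl1 and Ptprc had to be at 0. Of the 24494 deposited barcodes, 2390 met this rule, 685 of 13569 in the control library and 1705 of 10925 in the library labelled CKO.

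The study addressed whether the prostaglandin I2 receptor, called IP, acts on alveolar repair through JUN and p53. Nuclei came from GFP+ cells sorted from lungs of male mice 8 days after bleomycin, which damages the alveolar lining, and RNA and open chromatin were read from the same nuclei. Control mice carried SftpcCreERT2 and Rosa26mTmG, and CKO mice carried SftpcCreERT2, Rosa26mTmG and IP F/F, a floxed allele of the receptor gene. Both groups therefore carried the tamoxifen-inducible Cre driven by the surfactant gene Sftpc and the mTmG reporter, which turns from tomato to GFP in cells where Cre has acted, and both received bleomycin. The ages and the number of mice behind a library are not given in the labels, and there was 1 library per genotype. No difference between the genotypes could therefore be tested, a library effect and the genotype cannot be told apart, and the intervals given are 95% intervals that cover counting error only.

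AT2 cells make pulmonary surfactant, the mixture of phospholipid and protein that lowers surface tension in the alveolus. They assemble it in lamellar bodies, lysosome-related organelles whose lipid is loaded by the transporter ABCA3, and they also act as progenitors of the thin alveolar type 1 (AT1) cells. After injury AT2 cells can lose surfactant RNA and pass through a transitional state marked by keratins and p53 targets before they become AT1 cells.

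Facts of the libraries bear on what follows. The 685 and 1705 nuclei held 2557970 and 5787449 UMIs in sum, with a median of 2710 UMIs per nucleus in control and 2882 in CKO. Their median mitochondrial share was 15.1% in control and 11.6% in CKO, and the ribosomal-repeat transcript Gm42418 took 138302 CPM (UMIs scaled to a fixed total of nuclear-encoded UMIs per class) in control and 62097 in CKO. The libraries shared 193 barcodes, of which 3 were members in both. Droplets with at least 2 UMIs of Ptprc, the leukocyte antigen CD45, gave a gauge of RNA from other cells. No doublet caller was run, so free RNA and doublets cannot be told apart in them. The 1% surfactant share was also reached by 12 of 109 such droplets in control (11.0%, exact binomial interval 5.82 to 18.4%) and 102 of 860 in CKO (11.9%, 9.78 to 14.2%). Ptgir, the gene of the deleted receptor, had 0 UMIs in the members of both libraries, which allows up to 1.37 CPM in control and 0.588 in CKO, so its RNA checks neither label at this depth.

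The promoters of the genes on which the results turn are shown first. Promoter sequences (250 bases before to 50 after the gene start) are those of RefSeq for GRCm38.p6, in which 7 of the 8 surfactant-system genes and 4 of the 6 transitional genes had an entry. Capitals mark matches, on either strand, to motifs of factors with known roles in the lung epithelium: CTCAAG for NKX2-1, TTGCNNAA for C/EBP, TGANTCA for AP-1 (the JUN and FOS dimer), TGTTTNC for FOXA and GGAATG for TEAD. Sftpb encodes surfactant protein B (chr6:72304360-72304659, + strand), Lamp3 a lamellar body membrane protein (chr16:19706316-19706615, - strand), Acoxl an acyl-CoA oxidase-like protein (chr2:127854378-127854677, + strand) and Abcb1b an efflux transporter of the transitional set (chr5:8797897-8798196, + strand).
Sftpb: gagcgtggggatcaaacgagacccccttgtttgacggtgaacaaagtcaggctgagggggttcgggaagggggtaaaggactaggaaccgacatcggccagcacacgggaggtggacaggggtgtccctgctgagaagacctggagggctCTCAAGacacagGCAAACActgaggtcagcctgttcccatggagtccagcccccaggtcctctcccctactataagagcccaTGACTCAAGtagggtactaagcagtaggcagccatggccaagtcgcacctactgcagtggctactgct
Lamp3: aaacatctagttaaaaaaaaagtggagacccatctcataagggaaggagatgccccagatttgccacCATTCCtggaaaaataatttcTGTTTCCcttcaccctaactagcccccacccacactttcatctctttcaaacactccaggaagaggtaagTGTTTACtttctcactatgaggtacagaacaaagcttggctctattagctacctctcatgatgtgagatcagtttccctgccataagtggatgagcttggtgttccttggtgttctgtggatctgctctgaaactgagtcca
Acoxl: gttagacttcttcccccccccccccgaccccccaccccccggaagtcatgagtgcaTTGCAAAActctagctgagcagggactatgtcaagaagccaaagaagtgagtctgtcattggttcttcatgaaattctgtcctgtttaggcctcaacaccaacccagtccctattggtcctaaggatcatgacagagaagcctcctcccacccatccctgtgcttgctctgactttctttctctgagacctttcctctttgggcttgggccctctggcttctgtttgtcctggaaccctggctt
Abcb1b: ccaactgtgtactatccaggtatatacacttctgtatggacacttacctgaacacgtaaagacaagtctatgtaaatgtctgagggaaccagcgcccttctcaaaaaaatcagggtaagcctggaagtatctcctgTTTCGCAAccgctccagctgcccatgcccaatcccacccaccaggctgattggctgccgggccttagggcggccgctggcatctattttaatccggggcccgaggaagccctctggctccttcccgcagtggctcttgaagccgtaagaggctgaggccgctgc

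The Sftpb promoter held 2 NKX2-1 matches, the start-proximal one overlapping an AP-1 match that begins 18 bases before the gene start, and 1 FOXA match on the reverse strand. Lamp3 held 2 FOXA matches and 1 TEAD match, while Acoxl and Abcb1b each held 1 C/EBP match. Of the 32851 promoters of the same length, 15.9% held the NKX2-1 letters, 10.8% the C/EBP letters, 7.81% the AP-1 letters, 20.5% the FOXA letters and 14.7% the TEAD letters, so that a match describes these letters and no binding.

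The surfactant-rich nuclei made up a larger share of the barcodes in the library labelled CKO than in control. Of the 3532 control barcodes within the limits on UMIs, genes and mitochondrial share, 19.4% were members (18.1 to 20.7%), against 33.4% of 5101 in CKO (32.1 to 34.7%). The mitochondrial limit had cut the barcodes within the other limits from 10368 to 3532 in control and from 8531 to 5101 in CKO. The 2 shares therefore rest on unequally filtered barcodes. The rule chose these nuclei by their RNA, so the shares are a description. The order turned with the threshold: at a surfactant share of at least 0.5% the members were 50.1% of the control barcodes and 46.7% of the CKO barcodes, and at 2% they were 2.10% and 8.33%. Just outside the threshold, at 0.9 to 1%, lay 169 control and 136 CKO barcodes, with Sftpb at 2848 and 3200 CPM. Just inside, at 1 to 1.1%, lay 122 and 150, with Sftpb at 3024 and 3516 CPM. No gap in the distribution separated members from the rest, as the histogram of surfactant shares shows. Its shape differed between the libraries among barcodes that met the other criteria. In control the fullest bin, starting at 0.6%, held 264 barcodes. In CKO the fullest bin started at 0.2% (244), with a dip at 0.6% (118) and another rise at 1.3% (162). The 1% threshold thus lay above the control peak but below the upper CKO rise. How far this shapes the comparisons of members between libraries was not tested.

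**Figure D1:**
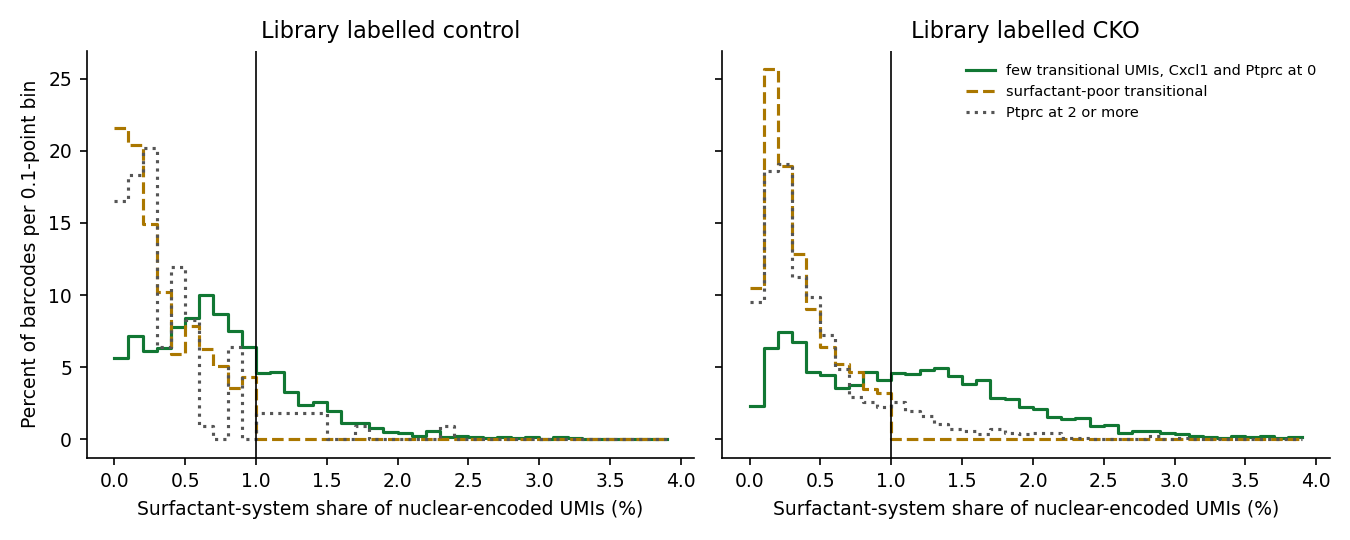
Distribution of the surfactant-system share of nuclear-encoded UMIs (horizontal axis, percent) in each library; the vertical axis is the percent of barcodes per 0.1-point bin, and the line at 1% is the threshold. Barcodes with few transitional UMIs and with Cxcl1 and Ptprc at 0 run across the threshold without a break, while the surfactant-poor transitional nuclei (defined as under 1%) and the droplets with at least 2 Ptprc UMIs have median shares of 0.260 to 0.325%.

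Among the 8 genes that chose the nuclei, Sftpb was the most abundant. A nucleus held a median of 32 UMIs of the 8 genes in control and 42 in CKO, and all 8 were detected in 45.8% of control and 58.2% of CKO nuclei. Sftpb gave the most UMIs of the 8 in 70.4% of control and 81.2% of CKO nuclei, and it took 30.1% and 33.7% of their summed UMIs. The median surfactant share was 1.32% in control and 1.57% in CKO, and the highest was 4.50% and 7.96%.

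The surfactant proteins differed little between the libraries. Sftpb stood at 4410 CPM in control and 5777 in CKO, a log2 ratio of CKO over control of 0.39 (0.36 to 0.42). Sftpa1, a collectin of the air space, stood at 2376 and 2093 CPM (log2 -0.18), and Sftpd, the other collectin, at 1557 and 2000 (0.36). All 3 lie at or below the median over all genes, given further on. Their levels come from the rule and are given with no test.

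Sftpc, the surfactant protein whose promoter drove Cre in these mice, was not part of the rule. Its RNA was sparse in these nuclei, at 151 CPM in control and 187 in CKO, a log2 ratio of 0.31 (0.13 to 0.49), and it had a UMI in 29.2% of control and 34.8% of CKO members. In the leukocyte droplets, which should lack it, 8.26% and 8.95% had a UMI, at median depths of 1999 and 2562 UMIs. In surfactant-poor transitional nuclei the shares were 13.7% and 6.41%, at the deeper medians of 4056 and 3999 UMIs. Thinned to 1000 UMIs per nucleus, the members kept a Sftpc UMI in 11.4% and 15.0% of nuclei, the transitional nuclei in 3.92% and 0.875% and the leukocyte droplets in 0 of 109, which allows a share of up to 2.75%, and 2.09%.

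Genes of phospholipid loading and lamellar bodies within the rule also lay within 2-fold. Slc34a2, the phosphate transporter of AT2 cells, stood at 1496 CPM in control and 2146 in CKO (log2 0.52), and Lamp3 at 1349 and 1596 (0.24). Abca3, the lipid transporter, stood at 1003 and 994 (-0.01), Lpcat1, which makes dipalmitoylphosphatidylcholine, at 856 and 935 (0.13), and the chemokine Cxcl15 at 1609 and 1616 (0.01). In the leukocyte droplets Slc34a2 reached 431 and 500 CPM, and in the transitional nuclei 303 and 262, so its level in other droplets was well above 0. The plot of surfactant-system genes by class sets these levels side by side.

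**Figure D2:**
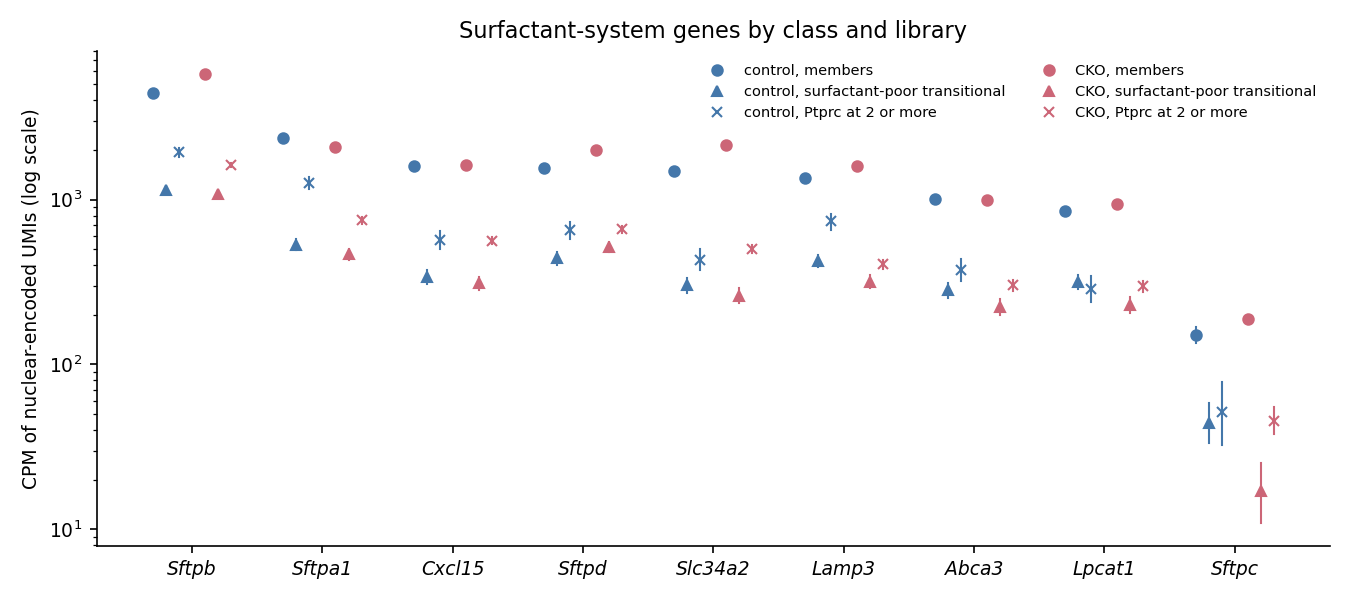
Level of the 8 genes of the rule and of Sftpc (vertical axis, CPM of nuclear-encoded UMIs, log scale) in the surfactant-rich nuclei (members, circles), the surfactant-poor transitional nuclei (triangles) and droplets with at least 2 Ptprc UMIs (crosses) of each library; bars are exact Poisson 95% intervals of the summed UMIs. Sftpb stands at 4410 and 5777 CPM in the members and at 1932 and 1626 in the leukocyte droplets.

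AT2 genes outside the rule were used to check the label. Over the 28 genes of this list the summed level was 15870 CPM in control members and 13287 in CKO members, against 7312 and 4435 in the surfactant-poor transitional nuclei and 8927 and 5104 in the leukocyte droplets. Lyz2, a lysozyme made by AT2 cells and macrophages, stood at 2638 and 1824 CPM in members and at 568 and 346 in transitional nuclei. Hc, complement C5, stood at 1308 and 785 against 375 and 111, and Lgi3, a secreted protein of AT2 cells, at 127 and 109 against 28.0 and 18.4. Etv5, a transcription factor that maintains AT2 identity, stood at 646 and 640 against 238 and 159. These genes were all higher in the members than in the transitional nuclei in both libraries. The sum of the AT1 list went the other way, with 3538 and 5893 CPM in members and 6525 and 7562 in transitional nuclei. Single AT1 genes were split. Ager had a UMI in 42.5% and 53.1% of members against 40.8% and 39.1% of transitional nuclei. Thinned to the same depth as for Sftpc, its shares were 17.8% and 25.9% against 13.7% and 15.7%. Hopx went with the sum, at 0.730% and 3.52% against 1.57% and 4.37% after thinning. Because the rule chose the nuclei by their RNA, these levels are given with no test.

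Markers of T and NK cells and of neutrophils were lower in members than in leukocyte droplets but not absent. Over the 12 T and NK cell genes the summed level was 15.0 CPM in control members and 18.8 in CKO members, against 725 and 1132 in the leukocyte droplets. Over the 10 neutrophil genes it was 1.37 and 158 CPM, against 79.7 and 838. Over the 18 macrophage and monocyte genes it was 2707 and 1982 CPM in members, against 1951 and 1902. Lyz2, which AT2 cells also make, took 2638 and 1824 CPM of that sum in members. S100a9, a neutrophil calprotectin subunit, had 0 UMIs in the 685 control members, which allows a share of up to 0.438% of nuclei (3 counts over the number of nuclei), and 313 UMIs in CKO members, at least 44.9-fold higher. It had a UMI in 14.4% of CKO members, 15.7% of CKO transitional nuclei and 25.6% of CKO leukocyte droplets. In control S100a9 was at 0 in the 255 transitional nuclei (a share of up to 1.18%) and the 109 leukocyte droplets (up to 2.75%) as well. Scgb1a1, the secretoglobin of club cells, had a UMI in 13.0% of control and 67.6% of CKO members, and in 21.1% and 69.2% of the leukocyte droplets. The Scgb1a1 shares in members lay below those in leukocyte droplets, which should lack the gene, but the intervals overlap in both libraries. In CKO they were 65.3 to 69.8% in members and 66.0 to 72.3% in the droplets. Thinned to the same depth as for Sftpc, the shares were 6.86% and 35.8% in members and 8.26% and 39.3% in the droplets. The CKO S100a9 shares in members and transitional nuclei rest on unequal median depths of 2882 and 3999 UMIs. Thinned in the same way, they were 6.39% and 6.12%, so their order turned. The part of RNA from other cells in the differences between the libraries was not tested.

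Between the libraries, 1173 of 9448 genes with at least 50 UMIs were at least 2-fold higher in CKO members (12.4%) and 159 were at least 2-fold lower (1.68%). The median over all genes was not at 0: it lay at a log2 ratio of 0.40, and at 0.41 over the 11788 genes with at least 20 UMIs used for gene lists. With libraries scaled by the median of ratios in place of total UMIs, 486 genes were higher and 353 lower, so that 57.9% of the calls were higher. The lists below are therefore given relative to the all-gene median of 0.41, beside a background of 16.8% of genes at least 2-fold higher and 2.57% at least 2-fold lower. The median of 16 of 35 lists lay above it. Among these were the macrophage, neutrophil, B lineage, endothelial, fibroblast, club and ciliated lists. Genes of such lists near 0 in control passed the minimum of 20 UMIs through the CKO library, so the count is no result about them. The transitional genes of the rule, which it held under 3 UMIs per nucleus, lay only 0.003 above.

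**Figure D3:**
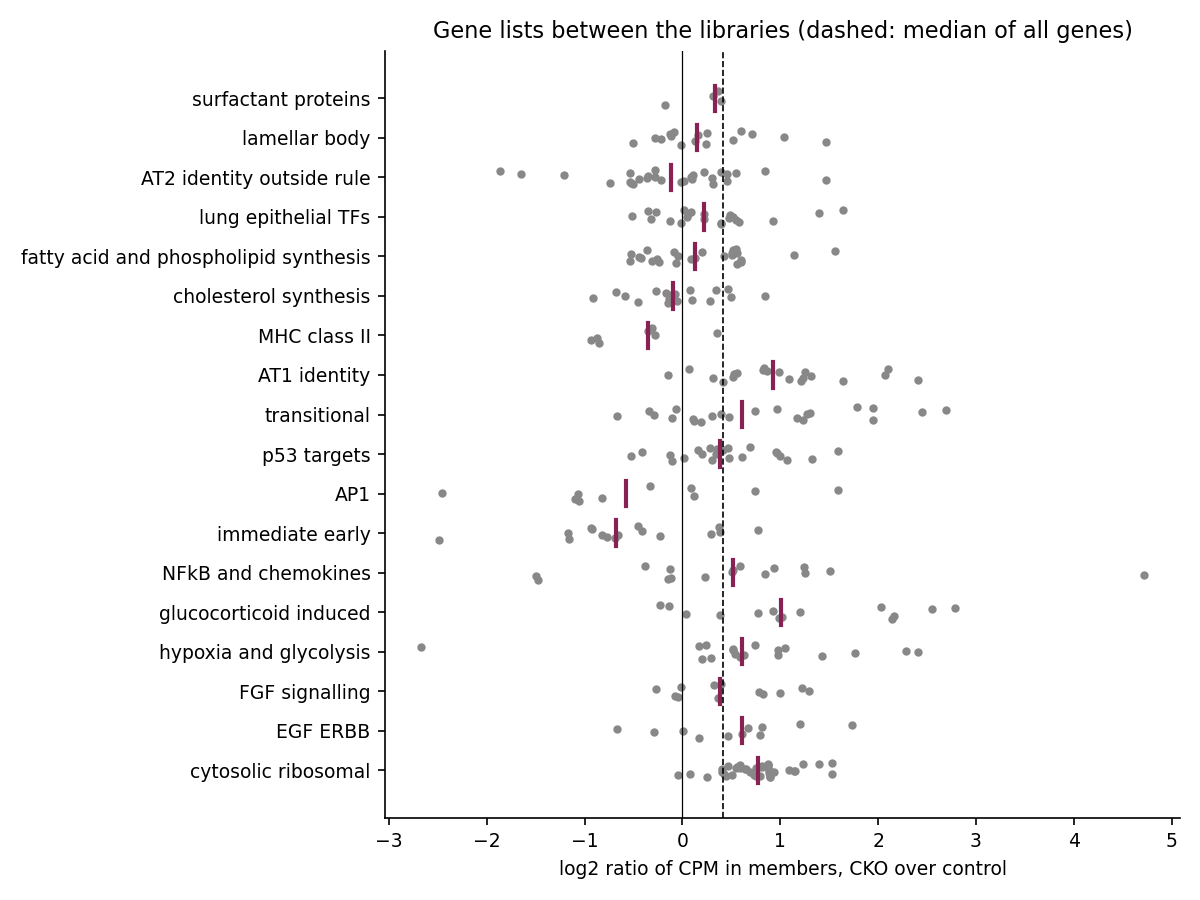
Log2 ratio of CPM in the surfactant-rich nuclei (members), CKO over control (horizontal axis), for the genes of 18 lists with at least 20 UMIs; each point is a gene, each purple bar the list's median, and the dashed line is the median of all genes at 0.41. Genes listed at 0 in control are left out of the points and enter the median at their bound. The AP-1 and immediate early medians lie below 0, and the AT1 and glucocorticoid medians near 1.

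The surfactant and lipid lists lay at or below the all-gene median. None of the 4 surfactant proteins was 2-fold different, and their median lay 0.08 below it. Of 16 lamellar body genes, 2 were at least 2-fold higher and 0 lower, and the list's median lay 0.27 below. The higher genes were Ctsh, a cathepsin that processes surfactant protein precursors, at 532 CPM in control and 1466 in CKO (log2 1.46, 1.37 to 1.55), and the lysosomal membrane gene Lamp1 at 92.9 and 191 (1.04). Fatty acid and phospholipid synthesis had a median 0.28 below, with 2 of 25 genes higher, among them the lipid droplet gene Plin2 at 39.2 and 115 CPM. Cholesterol synthesis had 0 of 18 genes past 2-fold in either direction and a median 0.51 below the all-gene value.

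The median of the AT2 genes outside the rule lay 0.53 below that of all genes, with 3 of 28 genes at least 2-fold lower and 1 higher. Cpm, a membrane carboxypeptidase, stood at 1294 CPM in control and 356 in CKO (log2 -1.86, -1.95 to -1.77). Acoxl stood at 718 and 228 (-1.65, -1.76 to -1.54), and Slc6a14, an amino acid transporter, at 301 and 130 (-1.21). These genes were also lower in the CKO library outside the members: Cpm by a log2 of -2.10 in transitional nuclei and -3.25 in leukocyte droplets, Acoxl by -2.25 and -2.17, and Slc6a14 by -1.30 and -1.91. The difference was thus as large in droplets of other classes as in the members. At a surfactant share of at least 2% the Acoxl value moved to -0.71.

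Transcription factors of the lung epithelium lay 0.19 below the all-gene median, with 2 of 22 higher and 0 lower. Nkx2-1, the factor that specifies lung epithelium, stood at 315 and 413 CPM (log2 0.39), Etv5 at 646 and 640 (-0.01) and Cebpa at 29.2 and 38.4 (0.40). Neither these nor the surfactant genes passed 2-fold. MHC class II genes, which AT2 cells express constitutively, had 0 of 7 genes past 2-fold and 0 above the all-gene median; their invariant chain Cd74 stood at 716 and 561 CPM, and H2-Ab1 at 155 and 81.3.

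AT1 genes were higher in the CKO members. Of 20 measured, 9 were at least 2-fold higher and 0 lower, 17 lay above the all-gene median, and the list's median was 0.52 above it. Clic5, a chloride channel family protein of AT1 cells, stood at 37.8 CPM in control and 159 in CKO (log2 2.07, 1.75 to 2.42), with a UMI in 9.49% and 29.4% of nuclei. Cav1, the caveolar coat gene, stood at 5.47 and 29.0 CPM (2.41), Hopx, a homeodomain gene of AT1 cells, at 14.6 and 45.4 (1.64), and Emp2 at 136 and 319 (1.23). Ager, the most used AT1 marker, stood at 288 and 385, a log2 of 0.42 that equals the shift of all genes. In the transitional nuclei Clic5 and Hopx were higher in CKO as well, with log2 ratios of 0.70 (0.42 to 0.99) and 1.38 (0.80 to 2.00), and Hopx had a UMI in 7.84% of control and 20.4% of CKO nuclei. In the leukocyte droplets Clic5 had a log2 of -0.43 (-0.84 to -0.01). Hopx had -0.58 there, with an interval of -1.23 to 0.13 that includes 0, and its 24 control UMIs lay in 3 of 109 droplets (2.75%), while 81 of 860 CKO droplets had a UMI (9.42%).

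The transitional list was higher in part. Of 22 genes, 9 were at least 2-fold higher and 0 lower, and the median lay 0.20 above the all-gene value, but it lay 0.11 below with nuclei thinned to 1000 UMIs and 0.08 below at a surfactant share of at least 2%. Anxa1, a phospholipid-binding anti-inflammatory protein, stood at 706 CPM in control and 1703 in CKO (log2 1.27, 1.19 to 1.35), against 0.05 in transitional nuclei and -0.56 in leukocyte droplets. Krt19 stood at 14.6 and 56.4 CPM (1.95) and Ccnd1, cyclin D1, at 113 and 253 (1.17). Krt8, the keratin that defines the state, stood at 245 and 279 CPM (0.19), and Cdkn1a, the cell cycle inhibitor p21 and a p53 target, at 241 and 223 (-0.11). The list of p53 targets had 3 of 22 genes higher, 0 lower and a median 0.03 below that of all genes.

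The AP-1 and immediate early genes lay furthest below the all-gene median, by 0.99 and 1.09. Of 10 AP-1 genes, 4 were at least 2-fold lower and 1 higher, and of 16 immediate early genes 3 were lower and 0 higher. Jun stood at 858 CPM in control and 411 in CKO (log2 -1.06, -1.15 to -0.97), and Egr1, an early response transcription factor, at 529 and 94.2 (-2.49, -2.65 to -2.33). Junb (-1.09), Fosb (-1.07) and Fosl1 (-2.45) were likewise lower, while Fos stood at 457 and 498 CPM (0.12). The same direction held outside the members: Jun had a log2 of -1.38 in transitional nuclei and -0.79 in leukocyte droplets, and Egr1 of -2.17 and -1.62. With the mitochondrial share held under 10%, the medians lay 0.29 and 0.60 below. Nfkbia and Tnfaip3, feedback inhibitors of NF-kB, stood at 269 and 97.0 CPM and at 71.5 and 25.3, whereas the median of their list of 17 genes lay 0.11 above the all-gene value and turned below it in 5 of the alternatives.

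Genes induced by glucocorticoids had the highest median among the epithelial and signalling lists, 0.59 above that of all genes, with 7 of 14 at least 2-fold higher and 0 lower. Zbtb16, a zinc finger factor, stood at 197 CPM in control and 879 in CKO (log2 2.16, 2.02 to 2.30), Fkbp5, a chaperone of the glucocorticoid receptor, at 27.8 and 123 (2.15), and Hif3a at 13.7 and 80.1 (2.55). All 3 were also higher in CKO transitional nuclei (1.63, 2.39 and 2.68) and leukocyte droplets (1.36, 2.63 and 1.35). Errfi1, an inhibitor of the EGF receptor, differed from them: it stood at 964 and 2223 CPM in members (1.21, 1.14 to 1.27), but had a log2 of 0.20 in transitional nuclei and 0.02 in leukocyte droplets. Spred1, an inhibitor of RAS signalling, stood at 197 and 483 CPM in members (1.29) and had 0.21 in transitional nuclei and 0.45 in leukocyte droplets. Whether these differences depend on the class was not tested.

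Of the prostaglandin genes, 2 of 10 measured were higher and 1 lower; Ptgs2, the inducible cyclooxygenase, stood at 223 and 113 CPM (log2 -0.99). By the interval bound nearest 0, the genes furthest higher in CKO members included S100a9, S100a8, Il1b, Scgb3a2 and Igkc, which are genes of other cell types, and the cytochrome P450 genes Cyp4b1 (7.75 and 78.8 CPM, log2 3.35) and Cyp2b10 (40.5 and 312, 2.95). In transitional nuclei Cyp4b1 had a log2 of 0.07 and Cyp2b10 of 1.99. Over whole lists of other cell types, the summed level in control and CKO members was 191 and 831 CPM for club, 22.3 and 70.1 for ciliated, 25.1 and 63.7 for endothelial, 208 and 475 for fibroblast and 6.83 and 23.5 for B lineage genes. The neutrophil sums given above rest on 3 UMIs in control, where 8 of the 10 genes were at 0. The macrophage and monocyte sum was lower in CKO members, at 2707 and 1982 CPM. Lyz2, which AT2 cells also make, took 2638 and 1824 CPM of it. The sum thus follows Lyz2 and does not describe the rest of that list. Since a gene was measured only with at least 20 UMIs over both libraries, genes near 0 in control were measured through the CKO library, and no count of higher genes is given for these lists. The genes furthest lower included Tmprss7, a transmembrane serine protease, with 142 UMIs in control and 1 in CKO (log2 -8.37, -13.68 to -5.87), and Ttc23l at 129 and 9.01 CPM (-3.84), also lower in transitional nuclei (-3.96). Cytosolic ribosomal protein genes had 7 of 42 at least 2-fold higher and 37 above the all-gene median. Their summed level was 5546 and 9443 CPM in members, 4782 and 13452 in transitional nuclei and 4326 and 11187 in leukocyte droplets.

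Within the members, genes were followed over bins of the surfactant share (1 to 2%, 2 to 3% and 3% or more), with 611, 62 and 12 nuclei in control and 1280, 340 and 85 in CKO. Lyz2 stood at 2266, 5418 and 7086 CPM over the bins in control and at 1316, 2739 and 6787 in CKO. Napsa, an aspartic protease that processes surfactant protein B, stood at 546, 1190 and 2353 CPM in control and at 394, 560 and 883 in CKO, and Cd74 at 653, 1058 and 2187 and at 475, 706 and 1441. Hc stood at 1318, 1269 and 1024 CPM in control and at 747, 910 and 927 in CKO, and Etv5 at 642, 715 and 471 and at 632, 673 and 655, so that neither was highest in the top bin of both libraries. The ribosomal list went with the share, from 4911 to 13009 CPM in control and from 8432 to 17957 in CKO. So did the median mitochondrial share, from 14.7 to 18.1% and from 10.7 to 14.2%. Its part in the bins was not tested. The highest control bin holds only 12 nuclei and 36129 nuclear-encoded UMIs.

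**Figure D4:**
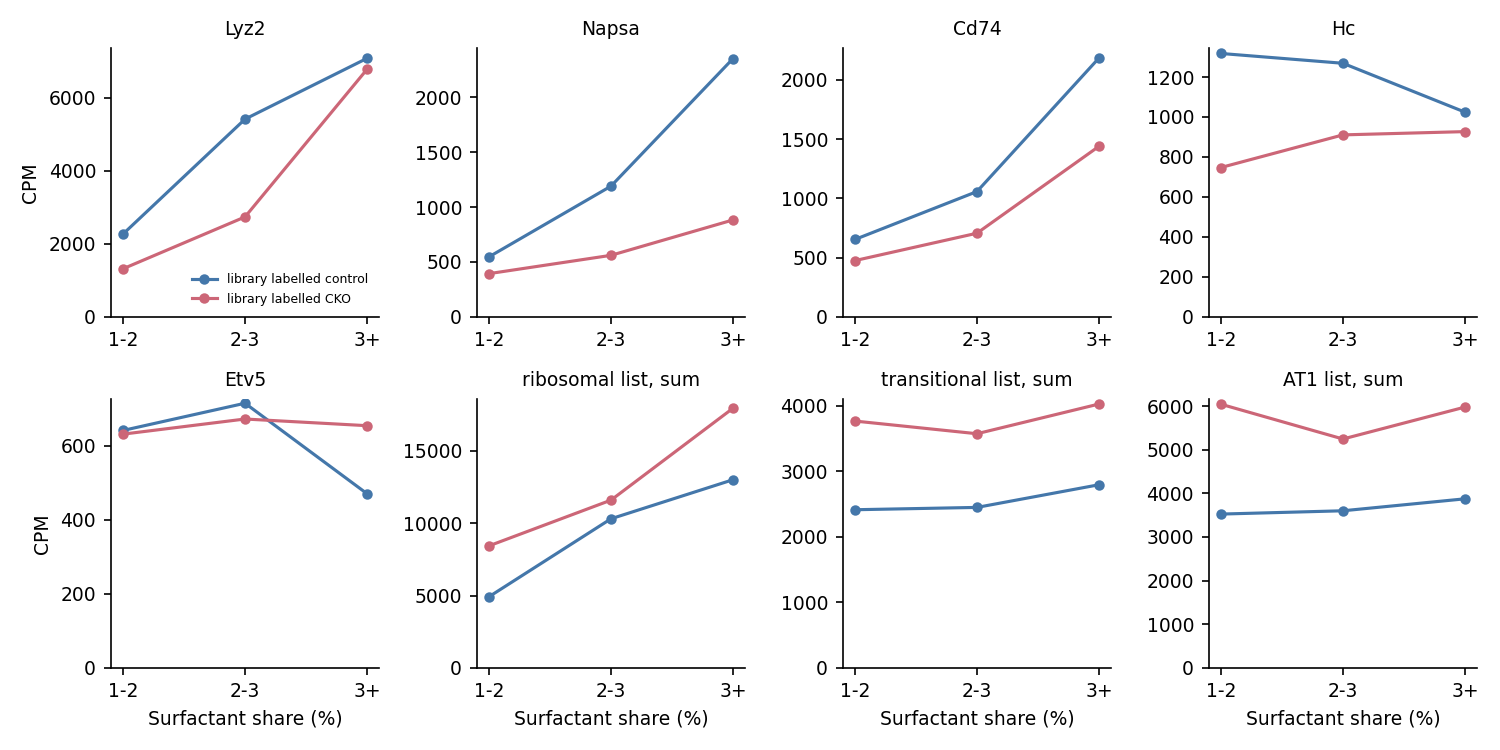
Level in CPM (vertical axes, from 0) of Lyz2, Napsa, Cd74, Hc, Etv5 and of the summed ribosomal, transitional and AT1 lists in surfactant-rich nuclei binned by surfactant share (horizontal axis, percent), for each library. Lyz2, Napsa, Cd74 and the ribosomal list are highest in the top bin of both libraries, while the summed AT1 list stays between 3525 and 3875 CPM in control and between 5246 and 6044 in CKO.

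Chromatin gave a measure that the rule had not used. Transposition counts of members and of the surfactant-poor transitional nuclei (255 in control, 343 in CKO) were summed per library, and the classes were compared with the library as a block. The comparison rests on 4 sums, 2 per class, with 1 residual degree of freedom. In shared regions the members held 1772063 counts in control and 5899830 in CKO, and the transitional nuclei 644285 and 938730. Raw counts given below for the 2 classes are therefore not on the same scale, while log2 values are scaled. Of 36284 regions tested with edgeR's quasi-likelihood test, 229 (0.631%) were more open in members and 171 (0.471%) less open at a Benjamini-Hochberg adjusted p under 0.05, and 4879 had an unadjusted p under 0.05. All 400 had the same direction in both libraries, but they were called from these same sums, which favours such regions, so this is no separate support. DESeq2 called 4 and 37, the fit without the library block called 0 and 0 (4118 at an unadjusted p under 0.05), and a stricter transitional class with a share under 0.5% gave 46 and 43. Of the regions that passed, 62.0% of those higher and 63.2% of the lower lay over 10 kb from a gene start, against 39.0% of those tested.

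Of the 8 surfactant-system genes, 7 had shared regions assigned within 10 kb. There 2 of 27 regions tested were called more open in members and 0 less open, beside the 0.631% and 0.471% over all regions. Other called regions lay further from these genes. A region inside the span of starts listed for Abca3 (chr17:24359517-24360446) had 83 counts in control members and 6 in control transitional nuclei, and 262 and 5 in CKO (log2 2.69, adjusted p = 0.000443 by edgeR's quasi-likelihood test, 0.0420 by DESeq2). Scaled to the class totals, these counts were 46.8 and 9.31 CPM in control and 44.4 and 5.33 in CKO. A region at chr5:52982540-52983463 had 44 and 140 counts in members and 0 in both transitional sums, at least 5.33-fold higher in control and 7.43-fold in CKO. It lies 65.9 kb from the start of Slc34a2, and its nearest listed gene is Gm30301. Lpcat1 had a region 17.8 kb from its listed starts with 56 and 163 counts in members and 3 and 4 in transitional nuclei (log2 2.71, adjusted p = 0.00775 by edgeR's quasi-likelihood test). A region 26.8 kb from Sftpb had 85 and 266 counts against 13 and 15 (1.37, adjusted p = 0.0352 by the same test). The Lpcat1 and distant Sftpb regions were picked after their values were seen.

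Few promoters passed. Over all 13795 promoter regions tested 21 were called higher and 12 lower, with a median log2 of -0.01. All 4 surfactant protein promoters were above 0, with a median of 1.13, and 1 was called. The Sftpb promoter region (chr6:72303943-72304853), which holds the NKX2-1 and AP-1 letters shown above, had 74.5 CPM in control members and 43.5 in control transitional nuclei, and 52.9 and 17.0 in CKO (log2 1.17, adjusted p = 0.0303 by edgeR's quasi-likelihood test, 0.490 by DESeq2). The Sftpc (1.64), Sftpd (1.09) and Sftpa1 (1.06) promoters had adjusted p-values of 0.0820, 0.112 and 0.148 by the same edgeR test and did not pass. The Lamp3 promoter had 15 counts against 1 in control and 69 against 0 in CKO, and did not pass either (adjusted p = 0.106, edgeR).

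Of the AT2 genes outside the rule, 20 of 23 promoter regions tested were above 0, with a median of 0.46 and 1 called. That was the Acoxl promoter (chr2:127854092-127854918), with 34 and 65 counts in members and 0 in both transitional sums (adjusted p = 0.00824 by edgeR's quasi-likelihood test, 1.00 by DESeq2), at least 4.12-fold higher in control and 3.45-fold in CKO. Epithelial transcription factors had a median of 0.12 and AT1 genes of 0.07, with 17 of 26 and 14 of 23 regions above 0 and none called by edgeR. The p53 targets had a median of -0.25 and the transitional list of -0.15, with 6 of 24 and 11 of 27 above 0, and again none called.

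**Figure D5:**
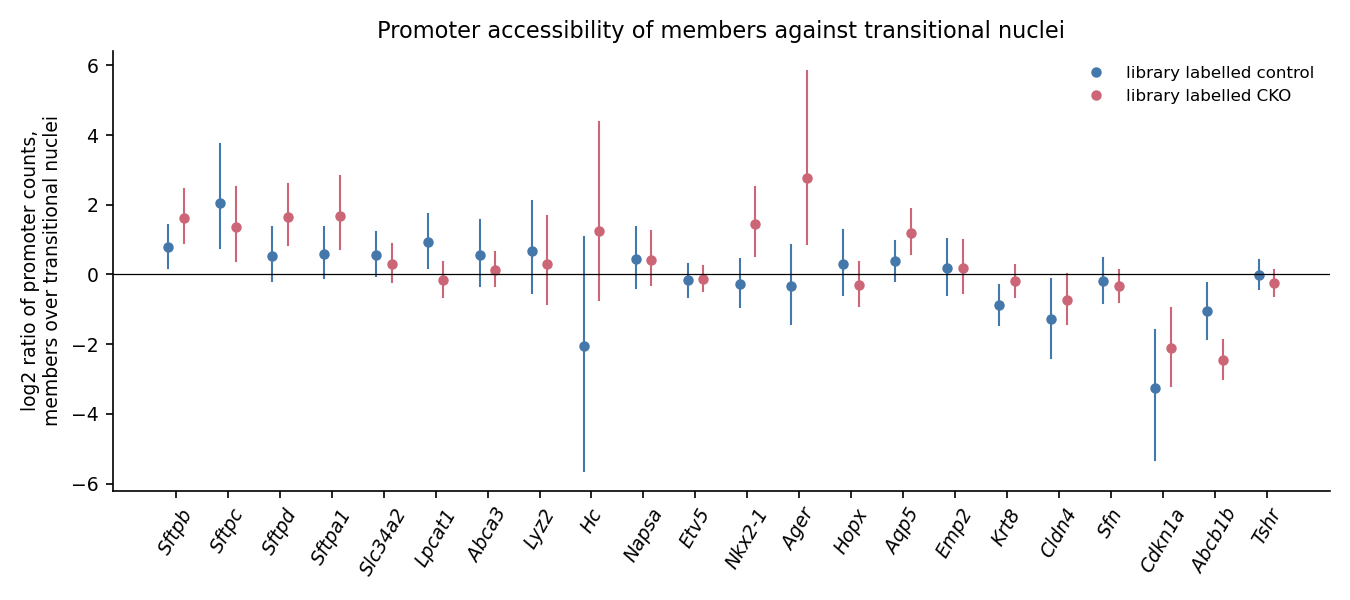
Log2 ratio of promoter counts of surfactant-rich nuclei (members) over surfactant-poor transitional nuclei (vertical axis) for named genes (horizontal axis) in each library; bars are 95% intervals of counting error. Genes without counts in a class are not drawn. Sftpb, Sftpc, Sftpd and Sftpa1 lie above 0 in both libraries, and Cdkn1a and Abcb1b below 0.

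Of the promoter regions tested at the 6 transitional genes of the rule, 1 of 4 was called less open in members and 2 of 4 lay above 0. The one called, the Abcb1b promoter (chr5:8797889-8798810), had 18.6 CPM in control members against 38.8 in transitional nuclei, and 10.2 against 55.4 in CKO (log2 -1.85, adjusted p = 0.00390 by edgeR's quasi-likelihood test, 0.187 by DESeq2). The Anks1b promoter, which did not pass (adjusted p = 0.628, edgeR), had 35 counts against 2 in control, a log2 of 2.67 (0.71 to 5.77), and 52 against 9 in CKO (-0.12). Abcb1b RNA, which the rule used, stood at 2.73 and 8.82 CPM in members and 170 and 316 in transitional nuclei. The Cdkn1a promoter had 4 counts against 14 in control and 19 against 13 in CKO (-2.58, adjusted p = 0.0984, edgeR), which did not pass. Regions less open in members also lay near Mapk8 (chr14:33443610-33444536; 12 and 43 counts against 34 and 36, log2 -2.63), which encodes the kinase JNK1, and near Ets2 (chr16:95682087-95683019; 33 and 147 against 52 and 60, -1.68), with adjusted p-values of 0.000360 and 0.000485 by edgeR and of 0.0137 and 0.0420 by DESeq2. With the transitional class under 0.5% the Mapk8 region passed the edgeR test (adjusted p = 0.0137) and the Ets2 region did not (0.0556), nor did the Sftpb (0.123), Acoxl (0.0689) and Abcb1b (0.0669) promoters. Without the library block both regions had an adjusted p of 0.129 by edgeR.

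Between the libraries the chromatin of the members was compared with no test. Of 37183 shared regions with at least 50 counts, 3554 (9.56%) were at least 2-fold more open in CKO members and 993 (2.67%) at least 2-fold less. Surfactant protein promoters had 0 of 4 past 2-fold in either direction and a median of -0.45, and AT2 genes outside the rule 0 of 23 and a median of -0.54, beside a median of -0.09 over all 13792 promoters. The Sftpb promoter had a log2 ratio of -0.49 (-0.79 to -0.19) beside an RNA ratio of 0.39, which lay near the all-gene RNA median of 0.41. The Acoxl promoter had -0.80 (-1.42 to -0.16) beside an RNA ratio of -1.65. The Cpm promoter had -0.54 (-0.87 to -0.20). AT1 promoters had a median of -0.20, with 1 of 23 past 2-fold, although their RNA stood above the all-gene median. The Jun promoter had -0.14 (-0.34 to 0.06) and the Egr1 promoter -0.17 (-0.37 to 0.05), intervals that include 0.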

How the data were processed

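RNA and open chromatin were read from the same nuclei of 1 control and 1 CKO library, 4 samples in all, grouped by the genotype in their labels. The deposited matrices hold raw counts per barcode, UMIs for genes and transposition events for peaks, in 10x format per the file headers. Cell Ranger ARC 2.0.1, Seurat 4.1.0 and Signac 1.6.0 are named in the submitters' processing notes with the builds GRCm39 and GRCm38, without saying which step used which. Of 25152 gene starts in the files that matched a RefSeq symbol, 24091 (95.8%) lay within 1000 bases of the gene on GRCm38, and coordinates are given as in the files and read as GRCm38. The deposited gene matrices hold 48378328 control and 30818808 CKO UMIs. No deposited annotation of cells was used and no doublet caller was run.

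CPM were taken over UMIs of nuclear-encoded genes summed over the nuclei of a class. The surfactant-poor transitional class met the same limits with a surfactant share under 1%, at least 3 UMIs of the 6 transitional genes, and Cxcl1 and Ptprc at 0. Ratios between libraries carry exact conditional binomial intervals, and shares exact Clopper-Pearson intervals. A gene was called at 2-fold with at least 50 UMIs over both libraries, and lists used genes with at least 20. A count of 0 was set to a floor of 3 counts per class and library for bounds, and the limit given for a share of 0 is this floor over the number of nuclei in place of the Clopper-Pearson bound. Peaks of the 2 libraries that overlapped were merged to 97973 shared regions, and classes were tested with edgeR 4.0.16 (quasi-likelihood, TMM scaling, filterByExpr, library as a block) in R 4.3.3, with DESeq2 1.42.0 as an alternative. A region within 1000 bases of a gene start was a promoter. In simulated counts for that test over 32637 regions, 54 of 66 regions changed 4-fold were called, 4 of 67 changed 2-fold and 0 of 67 changed 1.5-fold, with 3 false calls. In simulated gene counts over 9448 genes the interval held the true ratio of unchanged genes in 96.2%. Those counts were drawn with counting error only, which the interval assumes. The figure therefore checks the computation and does not cover spread between nuclei or mice.

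The members and gene lists were chosen with earlier results of these data known. Named genes were the 12 furthest higher and 12 furthest lower between the libraries with at least 100 UMIs (by the interval bound nearest 0, without mitochondrial genes, the genes of the rule and unnamed gene models), the genes of the rule with Sftpc, Ptgir, Jun, Trp53, Cdkn1a, Krt8, Hopx and Ager, and the 2 highest and 2 lowest of each list. Anxa1, Ccnd1, Cd74, Cebpa, Clic5, Emp2, Etv5, Fkbp5, Fos, Fosb, Hc, Krt19, Lgi3, Lyz2, Nkx2-1, Slc6a14, Zbtb16 and the promoters of Cpm, Jun, Egr1 and Anks1b were named after their values were seen. The alternatives changed the surfactant threshold, mitochondrial limit, depth limits, thinning, scaling, gene minimum, region filter, overlap, promoter width, class threshold and tool.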

Additional observations from a re-analysis of the deposited data

Results flagged for a closer look

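Tgfb2, a transforming growth factor ligand, had opposite ratios between the libraries in the members and in the transitional nuclei. In the surfactant-rich nuclei it had 7 UMIs in control and 56 in CKO, a log2 ratio of CKO over control of 1.78 (0.645 to 3.16), and in the surfactant-poor transitional nuclei it had 113 and 88 UMIs, a log2 ratio of -0.58 (-0.997 to -0.163). It was the only one of 107 genes compared that met 2 conditions together. The intervals had to lie on opposite sides of 0 as given, and again relative to each class's all-gene median (0.41 in members, 0.37 in transitional nuclei). Genes that met only the first condition were not counted. With 1 library per genotype the difference between the classes was not tested.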

How the results depend on the processing

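Of 2326 values recomputed under an alternative, 1822 stayed near the value reported, 458 moved, 25 lost a call in the class test, 1 gained one and 20 were counted as turned. A change of sign was not counted as turned for genes under 2-fold or for list medians close to that of all genes. Such changes are among the values that stayed near or moved. The share of members was 50.1% and 46.7% (control and CKO) at a surfactant share of 0.5%, 2.10% and 8.33% at 2%, 23.3% and 38.4% without the Cxcl1 and Ptprc criteria, 12.3% in control at a mitochondrial share under 10%, and 31.7% in CKO without the 5% of members with most UMIs. Genes at least 2-fold higher and lower numbered 2243 and 289 at 0.5%, 667 and 57 at 2%, 674 and 84 at the lower mitochondrial limit, 486 and 353 with median-of-ratios scaling, 754 and 64 thinned to 1000 UMIs, 691 and 94 with at least 100 UMIs and 2790 and 1382 with no minimum, and 100 were lower with 1000 to 100000 peak counts. The lists above the all-gene median numbered 5 at 2% and 10 after thinning. List medians relative to all genes turned at 0.5% for NF-kB (-0.14) and EGF (-0.15), at 2% for transitional (-0.0848), NF-kB (-0.12), hypoxia (-0.12), ribosomal (-0.12) and macrophage (-0.29) genes, at the lower mitochondrial limit for heat shock (0.34), without the Cxcl1 and Ptprc criteria for NF-kB (-0.16) and proliferation (0.24), with nuclei weighted equally for NF-kB (-0.00893) and proliferation (0.25), and after thinning for transitional (-0.11) and NF-kB (-0.45). Log2 ratios turned for Cenpe at 0.5% (-0.75), for Bpifa1 (-0.97), Hspb1 (-0.29) and Scgb1a1 (-0.44) at 2%, and for Bpifa1 (-0.50) and Wnt7b (-0.18) at the lower mitochondrial limit. Of the class regions, DESeq2 called 4 and 37, the unfiltered fit 94 lower, the fit without the library block 0 and 0, and the transitional class under 0.5% gave 46 and 43; the Chil1 promoter passed only unfiltered (log2 2.16, adjusted p = 0.0388, edgeR quasi-likelihood). With at least 100 counts 716 and 350 regions were 2-fold higher and lower between the libraries. The cause of these shifts was not tested, beyond the fewer features that stricter minimums leave. No paired analysis was possible because each genotype has 1 library, numbered only by accession order. Counting 10 kb windows in place of promoters was chosen after seeing the data.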
